A study of Sus scrofa with 32 samples.

Results

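The TRIM and RNF genes, most of which encode ubiquitin ligases with a RING domain, were compared in the loin muscle of 4 breed groups of pigs. Members were chosen by symbol, and a RING domain was not required. The members were the gene identifiers whose symbol begins with TRIM or RNF followed by a digit, which gave 82 identifiers, 32 TRIM and 50 RNF, of the 17930 identifiers listed in at least 1 library. Symbols came from tables of gene names and were found for 60.4% of the identifiers. Of 135 names of the 2 families in those tables or the files, 53 had no matching identifier, among them TRIM54 and TRIM28, which are not analysed here. Enough reads for a test were found for 67 members, 25 TRIM and 42 RNF, and the other 15 are described by their reads.

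Ubiquitin is activated by an E1 enzyme, passed to an E2 conjugating enzyme and attached to a target protein by an E3 ligase, which chooses the target. A RING domain holds the loaded E2 beside the target. Most TRIM proteins join the RING to B-box and coiled-coil domains, whereas RNF is a looser family named only for its RING domain. In skeletal muscle, ligases of this kind mark sarcomere proteins for the proteasome, and TRIM63, also called MuRF1, is a widely used marker of muscle wasting.

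The samples were longissimus dorsi muscle of wild type pigs aged 6 months, with 8 pigs in each group, kept on similar feed in a similar environment. The groups were Landrace (L), a commercial lean breed, Dapulian (DPL), an indigenous Chinese breed, their cross Landrace x Dapulian (LDPL) and the cross Duroc x Landrace x Dapulian (DLDPL). Sex, batch and date are missing from the labels, and the L libraries are numbered in a series of their own, so that breed and handling cannot be told apart wherever L is compared. Depth was 21.7 M to 29.7 M uniquely mapped reads per library. L replicate 2 listed the most genes, 15664 against 14241 to 15177 in the others, and counts of members were repeated without it. ACTA1, the actin of skeletal muscle fibres, was at 25751 ± 9593 RPKM in DPL and 49701 ± 11116 in L (SD, n = 8). Of the 13 listed fibre markers, 7 had an identifier, and their summed level was 71109.8 to 180411 CPM, the read count relative to the TMM-scaled library size, in L and 77135 to 132544 in DPL. Reads of 13 mitochondrially encoded genes took 20.8 ± 2.58% of each library in L and 31.3 ± 5.59% in DPL. Markers of fibroblasts (6 of 8 with an identifier) summed to 1296 to 2298 CPM in L, 344 to 1358 in DPL, 546 to 1614 in LDPL and 944 to 2122 in DLDPL. Markers of satellite cells, the stem cells of muscle (5 of 6 with an identifier, 4 of them tested), summed to 53.4 to 95.7 CPM in L, 27.6 to 43.9 in DPL and 28.5 to 45.8 in DLDPL, both without overlap with L, and to 27.2 to 59.6 in LDPL. Of the lists for nerve, blood, lymphocytes, macrophages, smooth muscle, endothelium and adipocytes, none had a gene with an identifier at 0 reads in a whole group. Of 5 tested lymphocyte markers, the numbers called lower against L in DPL, LDPL and DLDPL were 3, 2 and 4 (median log2 changes -1.20, -0.86 and -1.23). Of 5 smooth muscle markers 2, 2 and 3 were higher in the same order and 2 were lower in DPL. Of 4 adipocyte markers 1 was higher in DPL and 2 in DLDPL. Of 3 endothelial markers 1, 2 and 1 were lower in DPL, LDPL and DLDPL. Over all genes 19.1%, 14.9% and 11.6% were higher and 18.9%, 14.7% and 10.3% lower in that order. With 3 to 5 markers per list, single calls carry little weight. Without the mitochondrially encoded genes, the counts of members higher and lower in DPL than in L stayed within 1.5 times the main counts. Beyond that refit, the part of these shifts in the results was not tested. In bulk tissue fewer cells of a type and less RNA per cell cannot be told apart.

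TRIM63 was by far the most abundant member. On the scale of reads scaled to gene length and to the mapped reads of the library (RPKM), which allows levels of different genes to be compared, it was at 302 ± 112 over the 32 libraries (SD). RNF10, which modifies ribosomal proteins, followed at 70.9, RNF146 at 60.3, TRIM72, a protein of membrane repair, at 51.1 and RNF14 at 36.9 RPKM. In all, 15 members had a mean of at least 10 RPKM, 39 lay between 1 and 10 and 28 were below 1. The plot of levels per length shows that TRIM63 was the single member above 100 RPKM in every group.

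**Figure D1:**
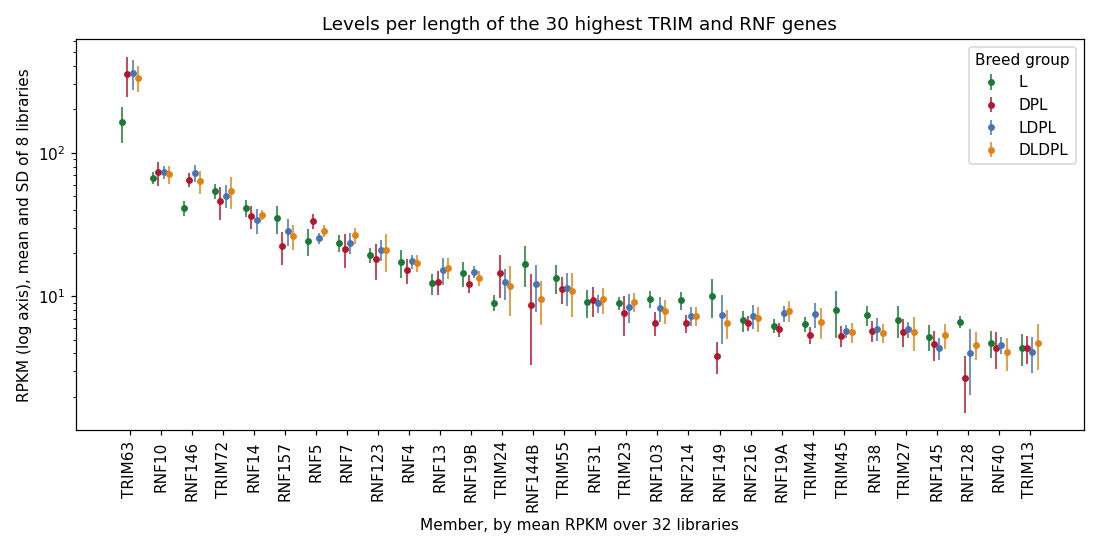
RPKM (log axis) of the 30 members with the highest mean over 32 libraries, in order of that mean. Points and bars are the mean and SD of 8 libraries in each of the 4 breed groups. TRIM63 stands above all others, at a mean of 302 RPKM over all libraries, and its L group lies below the other 3 groups.

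The 15 untested members were RNF139, RNF152, RNF17, RNF181, RNF183, RNF207, RNF224, RNF39, TRIM10, TRIM29, TRIM36, TRIM40, TRIM42, TRIM46 and TRIM9, with 2 to 494 reads each over all 32 libraries. Most were near 0 in every library. RNF181 was the exception: DPL replicate 19 held 216 of its reads, DLDPL replicates 29 and 27 held 98 and 96, and no other library held more than 16. Of the 8 L libraries, 3 had RNF181 reads, with at most 6. These 3 high libraries belong to 2 groups, so that RNF181 separated single pigs and not breeds. It was singled out after its values were seen.

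In the comparison of DPL with L, which asks how the indigenous breed differs from the commercial one, 8 members were higher and 22 lower in DPL at an adjusted p under 0.05 by edgeR's quasi-likelihood test. Over all 12821 tested genes, 19.1% were called higher and 18.9% lower, 38% in either direction. The members' shares were 11.9% and 32.8%, so calls in favour of L made up a larger share among these members than over all genes. The median log2 change was -0.10 over the 67 tested members and -0.02 over all genes, and the list was not tested as a set. Of the 25 TRIM genes, 3 were higher and 8 lower, and of the 42 RNF genes 5 and 14. The 8 higher members were TRIM63, RNF208, TRIM24, RNF146, RNF5, TRIM26, RNF111 and RNF10. The 22 lower members were TRIM32, TRIM37, TRIM45, TRIM59, TRIM62, TRIM65, TRIM66, TRIM68, RNF2, RNF20, RNF25, RNF26, RNF103, RNF125, RNF128, RNF135, RNF144A, RNF144B, RNF149, RNF157, RNF214 and RNF215. The 37 members that were not called lay between -0.54 (RNF227) and 0.25 (RNF167). In RNF5, RNF146, RNF208 and TRIM63 every DPL library lay above every L library, which held for 4.12% of all genes, and in RNF144A every DPL library lay below every L library, which held for 3.42%. On log2(RPKM + 1) with limma, 5 members were higher and 24 lower. The median of all genes was itself shifted to -0.12 there, or to -0.16 with a pseudocount of 0.1. No share of all genes is given here for these fits, so the limma counts stand without a background. RNF4, RNF10, RNF19A, RNF125, RNF146, RNF157, TRIM24, TRIM66 and TRIM68, among the members described here, overlap a locus with only a LOC name in RefSeq, and without strand their reads and those of such a locus cannot be told apart. The plot of log2 changes in DPL against L gives all 67 members in order.

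**Figure D2:**
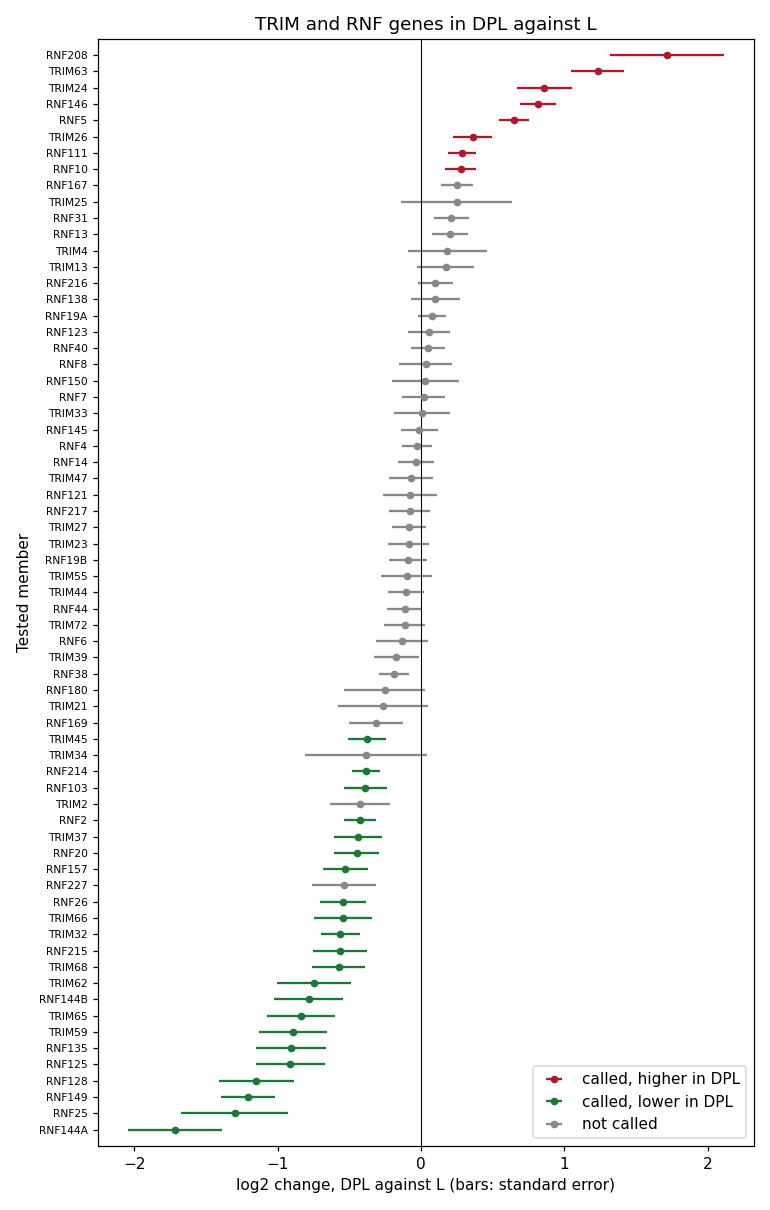
Log2 change (bars: standard error) of each of the 67 tested members in DPL against L, from edgeR over 8 libraries per group. Red marks the 8 members called higher in DPL, green the 22 called lower and grey those not called. The range runs from -1.71 for RNF144A to 1.71 for RNF208.

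Among the TRIM proteins of muscle, TRIM63 rose and TRIM32 fell in all 3 groups with Dapulian ancestry, while TRIM55 and TRIM72 were not called in any comparison. TRIM63 (ENSSSCG00000027684) was at 75.2 to 284 CPM in L with a median of 179.9, at 315 to 678 with a median of 425 in DPL, at 306 to 586 with a median of 407 in LDPL and at 314 to 511 with a median of 369.6 in DLDPL. No L library reached the lowest library of any other group, and the other 3 groups overlapped one another almost entirely. In the order DPL, LDPL and DLDPL, the log2 change (± SE) against L was 1.23 ± 0.19, 1.15 ± 0.19 and 1.01 ± 0.19 (adjusted p = 4.46e-06, 2.05e-05 and 0.000188 by edgeR), which is 2.35-fold, 2.22-fold and 2.01-fold. These 3 values share the same 8 L libraries. The lowest L library was replicate 2, and without it the change in DPL was 1.10. TRIM32 (ENSSSCG00000005501), a ligase whose mutation causes a limb-girdle muscular dystrophy, was at 4.36 to 6.08 CPM in L with a median of 4.82, at 2.45 to 4.76 with a median of 3.23 in DPL, at 2.33 to 4.15 with a median of 2.92 in LDPL and at 2.81 to 4.58 with a median of 3.14 in DLDPL. All LDPL libraries lay below all L libraries, while the highest DPL and DLDPL library each reached into the range of L. Its log2 changes were -0.56 ± 0.14, -0.68 ± 0.14 and -0.58 ± 0.14 (adjusted p = 0.00139, 0.000315 and 0.0024). TRIM32 overlaps ASTN2 in the RefSeq annotation of the pig, and since the libraries carry no strand, its few reads could include reads of that gene. TRIM55, or MuRF2, a relative of TRIM63 at the sarcomere, was at 33.7 ± 8.53 CPM in L and 31.5 ± 7.07 in DPL (SD, n = 8), with a log2 difference of -0.10 (95% interval -0.46 to 0.27). TRIM72 was at 75.9 ± 15.6 and 70.1 ± 16.2 CPM, a log2 difference of -0.11 (95% interval -0.41 to 0.18). The interval of TRIM55 and that of TRIM72 both lie below the change of TRIM63. Levels per library of 8 members are plotted by group.

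**Figure D3:**
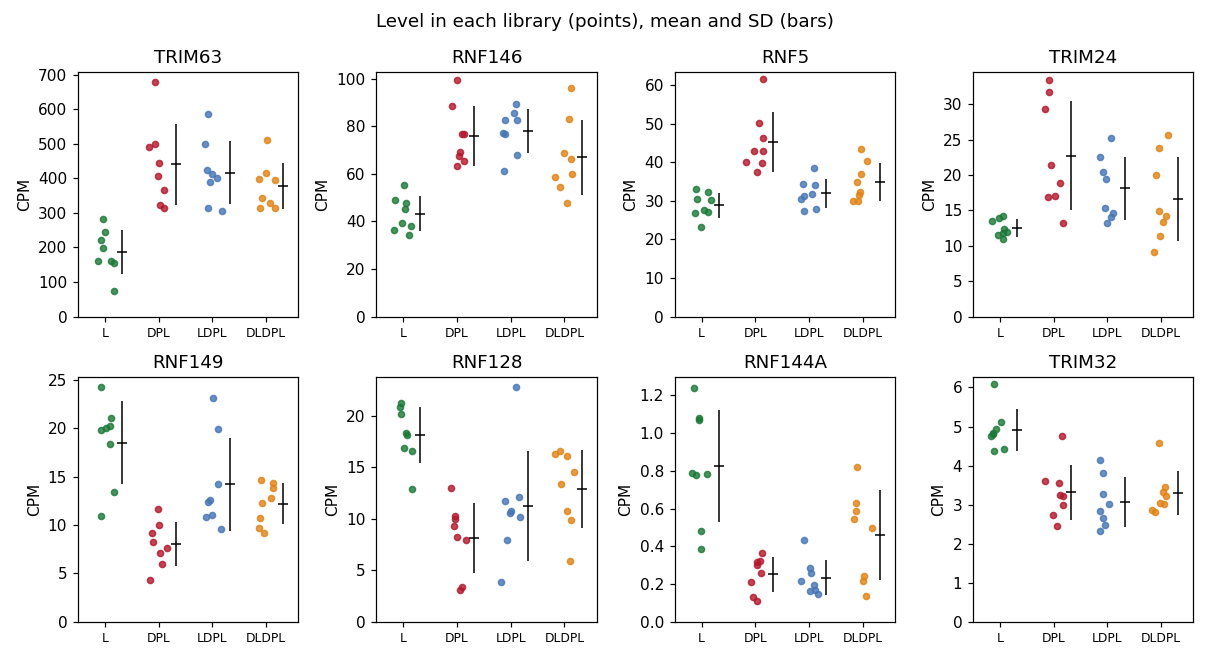
CPM (reads divided by the TMM-scaled library size, axes from 0) in each library for 8 members, with the mean and SD of the 8 libraries of each breed group beside the points. In TRIM63 and RNF146 the DPL and LDPL libraries lie above all L libraries, in RNF5 the DPL libraries stand above L, and in RNF144A all DPL libraries lie below L.

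Other genes of the muscle atrophy programme, listed without the members, also included more rises than falls against L. Of 29 tested genes 12 were higher and 3 lower in DPL, 12 and 3 in LDPL and 10 and 3 in DLDPL, with median log2 changes of 0.24, 0.28 and 0.25, beside medians of all genes of -0.02, -0.03 and -0.02. Over all genes 19.1%, 14.9% and 11.6% were higher and 18.9%, 14.7% and 10.3% lower in these comparisons. FOXO1, a transcription factor known to switch on TRIM63 in wasting muscle, was at 33.8 ± 7.17 CPM in L and 92.1 ± 26.4 in DPL (log2 change 1.45 ± 0.19, adjusted p = 4.64e-07). GABARAPL1, an autophagosome protein, was 2.46-fold and UBB, which encodes ubiquitin itself, 1.81-fold higher in DPL (adjusted p = 1.46e-06 and 9.01e-06). Other ubiquitin genes carry near-identical repeats, so the reads of UBB are uncertain. MSTN, or myostatin, an inhibitor of muscle growth that the list holds as a wasting signal, was 4.01-fold lower in DPL (adjusted p = 4.41e-06). FBXO32, or atrogin-1, the F-box ligase usually measured beside TRIM63, had log2 changes of 0.65 ± 0.25 in DPL, 0.76 ± 0.25 in LDPL and 0.43 ± 0.25 in DLDPL (adjusted p = 0.0382, 0.0221 and 0.228). It is no member and was chosen after its values were seen.

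In L, the pigs with more FOXO1 or FBXO32 also had more TRIM63. Of 12 relations computed within groups of 8 libraries (TRIM63 with FOXO1, FBXO32 and RNF146, on the log2 CPM scale), Pearson's r in L was 0.904 with FOXO1 (exact two-sided permutation p = 0.00295, adjusted 0.0226) and 0.879 with FBXO32 (exact permutation p = 0.00377, adjusted 0.0226). Spearman's rho for these was 0.786 (permutation p = 0.0279, adjusted 0.168) and 0.69 (permutation p = 0.0694, adjusted 0.198). Without the 2 libraries farthest from the median of FOXO1 or FBXO32, r was 0.599 and 0.543, so that both relations rest in part on those libraries. In the other groups r was 0.488 to 0.807 with FOXO1 and 0.597 to 0.781 with FBXO32, with adjusted p from 0.0603 to 0.295 (exact permutation). Their rho was 0.571 to 0.833, with adjusted p from 0.168 to 0.202 (exact permutation). With RNF146 it was 0.72 in L and -0.28 to -0.01 elsewhere, with adjusted p from 0.0695 to 0.988 (exact permutation), and rho was 0.714 in L and -0.21 to 0.238 elsewhere (adjusted exact permutation p = 0.198 in L and 0.619 elsewhere). No r over all 32 libraries is given, because the L libraries form a cluster of their own on FOXO1.

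**Figure D4:**
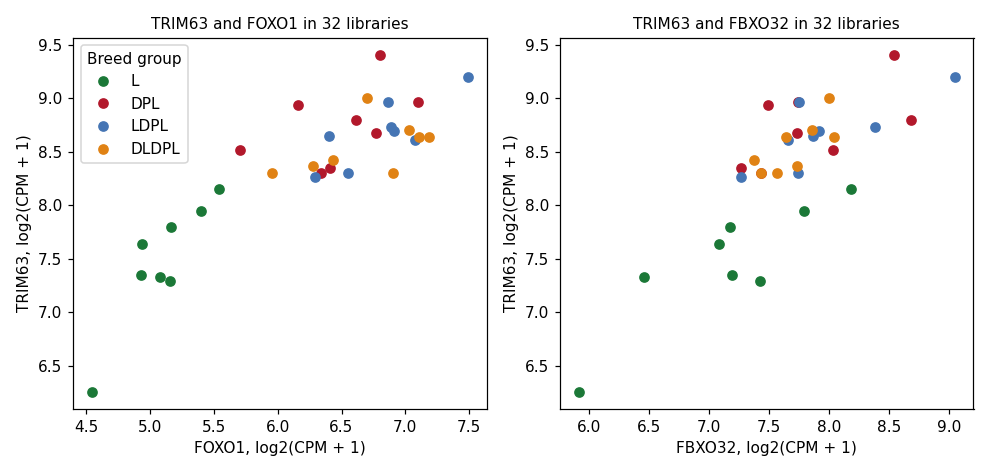
TRIM63 against FOXO1 (left) and FBXO32 (right), as log2(CPM + 1), in the 32 libraries, coloured by breed group. The 8 L libraries sit at the lower left, apart from the others on FOXO1, while on FBXO32 they overlap the other groups, and the lowest point in both panels is L replicate 2.

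In DPL, 3 ligases of innate immunity were lower than in L, while 9 interferon-stimulated genes outside the family were higher. Of 7 tested members with antiviral or innate immune roles, 1 was higher (TRIM26) and 3 lower (RNF125, RNF135 and TRIM65) in DPL, with a median log2 change of -0.38, beside 19.1% higher, 18.9% lower and a median of -0.02 over all genes. RNF135, or Riplet, which activates the viral RNA sensor RIG-I, was at 1.78 to 2.67 CPM in L with a median of 2.04 and at 0.325 to 1.88 with a median of 1.19 in DPL (log2 change -0.91 ± 0.24, adjusted p = 0.0035). RNF125, which marks the same sensor for degradation, was at 2.5 to 7.57 CPM in L with a median of 3.4 and at 1.3 to 3.12 with a median of 2.26 in DPL (log2 change -0.91 ± 0.24, adjusted p = 0.00328). In both genes the median DPL library lay below the lowest L library, while the highest DPL libraries reached into the range of L. TRIM65, a ligase of the sensor MDA5, was lower than in L in all 3 other groups (log2 change -0.84 ± 0.24, adjusted p = 0.00571 in DPL, -0.76 ± 0.24 with adjusted p = 0.0148 in LDPL and -0.77 ± 0.24 with adjusted p = 0.0184 in DLDPL). TRIM26, which acts on the interferon response, was 1.28-fold higher in DPL (adjusted p = 0.0335). TRIM25, another ligase of RIG-I, was at 0.576 ± 0.238 CPM in L and 0.693 ± 0.41 in DPL and was not called (log2 change 0.25 ± 0.39, adjusted p = 0.649).

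TRIM21, an antibody receptor inside cells that interferon induces, was at 1.54 to 4.57 CPM in L with a median of 3.06, at 1.31 to 4.48 with a median of 2.45 in DPL, at 0.661 to 2.56 with a median of 1.34 in LDPL and at 1.11 to 6.04 with a median of 1.28 in DLDPL. It fell in LDPL against L (log2 change -1.06 ± 0.32, adjusted p = 0.0126) and was not called in DPL (log2 change -0.27 ± 0.31, adjusted p = 0.533) or DLDPL (log2 change -0.76 ± 0.32, adjusted p = 0.0843). A single DLDPL library decided the last value. The top DLDPL value belongs to replicate 32, and the other 7 DLDPL libraries lay between 1.11 and 1.49 CPM. Without replicate 32 TRIM21 was lower in DLDPL than in L (log2 change -1.31, adjusted p = 0.000427). In that library TRIM34, another interferon-induced TRIM gene, was at 5.61 CPM against 0.357 to 1.96 in the other 7, and its change in DLDPL against L was -0.64 (adjusted p = 0.3) with that library and -1.31 (adjusted p = 0.0139) without it. Interferon-stimulated genes outside the family, 27 of them tested, summed to 937 CPM there and to 143 to 179 CPM in the other DLDPL libraries, with MX1, an antiviral GTPase, at 110.4 CPM against 4.21 to 8.53. Replicate 32 and TRIM34 were singled out after their values were seen. TRIM34 has close paralogs, so that its reads are uncertain. Over groups, 9 of the 27 interferon-stimulated genes were higher and 0 lower in DPL against L, with a median log2 change of 0.93, among them IFIT2 (3.09-fold), IFIT5 (2.31-fold), MX1 (4.41-fold) and the transcription factor IRF1 (2.04-fold), with adjusted p of 0.00018, 0.00109, 0.0157 and 0.00837. Over all genes 19.1% were higher and 18.9% lower. The summed level of the list ran from 165 to 316 CPM in L (median 211) and from 171 to 709.6 CPM in DPL (median 356), with DPL replicates 7, 19, 23 and 26 inside the range of L and replicate 11 at the top. MX1 likewise ran from 4.07 to 19.2 CPM in L and from 2.85 to 102 in DPL. In LDPL against L 1 was higher and 2 were lower, with a median of -0.12, and in DLDPL against L 1 was higher and 0 lower, with a median of 0.15. In LDPL against DPL 0 were higher and 3 lower, with a median of -1.05. Over all genes, 14.9% were higher and 14.7% lower in LDPL against L, and 11.6% and 10.3% in DLDPL against L. In LDPL against DPL these shares were 1.29% and 1.56%.

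Of 8 tested members that act on chromatin and transcription, 1 was higher and 3 were lower in DPL, and 38% of all genes were called. TRIM24 (ENSSSCG00000016518), a reader of histone marks and cofactor of nuclear receptors, was at 10.9 to 14.2 CPM in L with a median of 12.1 and at 13.2 to 33.4 with a median of 20.2 in DPL (log2 change 0.86 ± 0.19, adjusted p = 0.000654). The L libraries were tightly grouped and the DPL libraries wide, with the lowest DPL library inside the L range. In LDPL TRIM24 was at 18.1 ± 4.43 CPM (log2 change 0.53 ± 0.19, adjusted p = 0.0342) and in DLDPL at 16.6 ± 5.93 CPM, where it was not called (log2 change 0.40 ± 0.19, adjusted p = 0.131). RNF2, or RING1B, the catalytic subunit of Polycomb repressive complex 1, was at 11.3 to 15.6 CPM in L with a median of 14.3, at 7.63 to 13.8 with a median of 9.89 in DPL and at 11.1 to 15.6 with a median of 13.6 in LDPL. It fell in DPL (log2 change -0.43 ± 0.11, adjusted p = 0.00259), and LDPL was above DPL (log2 change 0.41 ± 0.11, adjusted p = 0.0381 against DPL). That second call was lost with the 2 groups fitted alone (adjusted p = 0.117), with limma on log2(RPKM + 1) (adjusted p = 0.0525) and without any 1 of LDPL replicates 5, 8, 10, 14 and 24 or DPL replicates 7, 11, 21, 23 and 26, with adjusted p up to 0.0798. RNF20, which with RNF40 ubiquitinates histone H2B, also fell in DPL (log2 change -0.45 ± 0.16, adjusted p = 0.0246), with adjusted p up to 0.0581 when L replicate 1, DPL replicate 16 or DPL replicate 23 was left out. RNF40 was at 15.1 ± 1.24 and 15.6 ± 3.75 CPM (log2 difference 0.05, 95% interval -0.19 to 0.29), and its sign turned to -0.11 and -0.14 with limma on RPKM. RNF40 overlaps ZNF629 in RefSeq, and without strand the reads of the 2 genes cannot be told apart. TRIM66, a relative of TRIM24, fell in DPL (log2 change -0.55 ± 0.20, adjusted p = 0.0332), and it overlaps the ribosomal protein gene RPL27A in RefSeq, whose reads cannot be told apart from its own. It was named after its values were seen.

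The partners of the chromatin and DNA damage members did not move in 1 direction: of 24 tested, 5 were higher and 2 lower in DPL, where 38% of all genes were called, with a median log2 change of -0.02. CBX2 and PHC3, both Polycomb proteins, changed in opposite directions. CBX2 was at 1.1 ± 0.373 CPM in L and 0.224 ± 0.139 in DPL (log2 change -2.26 ± 0.35, adjusted p = 6.09e-06), and PHC3 at 2.44 ± 0.594 and 6.11 ± 2.16 CPM (log2 change 1.32 ± 0.21, adjusted p = 6.5e-06). CTR9 and RTF1, which act with RNF20 during transcription, also differed in direction, with CTR9 1.52-fold higher and RTF1 1.39-fold lower in DPL (adjusted p = 0.000125 and 0.000666). Among 5 members of the DNA damage response, RNF111, or Arkadia, which also acts in TGF-beta signalling, was higher in DPL, at 19.5 ± 2.34 against 16 ± 1.5 CPM (log2 change 0.28 ± 0.10, adjusted p = 0.0225). RNF8, which marks chromatin at DNA breaks, and RNF4, which acts on SUMO-modified proteins, had log2 differences of 0.03 and -0.03 (95% intervals -0.34 to 0.40 and -0.24 to 0.18). RNF111, RNF8 and RNF4 lie outside the rule for named genes and were chosen after their values were seen.

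RING-between-RING ligases take ubiquitin onto themselves before passing it on. Of 8 tested, 2 were lower and 0 higher in DPL, below the 38% of all genes that were called, and both are paralogs of 1 pair. RNF144A (ENSSSCG00000008646), a membrane-bound ligase, was at 0.387 to 1.24 CPM in L with a median of 0.787, at 0.11 to 0.363 with a median of 0.279 in DPL, at 0.148 to 0.433 with a median of 0.204 in LDPL and at 0.139 to 0.823 with a median of 0.522 in DLDPL. DPL lay wholly below L, LDPL overlapped L only at its highest library, and DLDPL spread over the ranges of both. The log2 change was -1.71 ± 0.33 in DPL and -1.80 ± 0.33 in LDPL (adjusted p = 0.000112 and 0.000104), and RNF144A is a low-count gene, so that few reads carry it. RNF144B was far more abundant, at 56.3 to 113 CPM in L with a median of 82.6 and at 30.2 to 113 with a median of 34.5 in DPL (log2 change -0.78 ± 0.24, adjusted p = 0.00972). A single DPL library, replicate 30, was at 113 CPM, and the next DPL library was at 60.4. RNF144B also fell in DLDPL (log2 change -0.82 ± 0.24, adjusted p = 0.0128).

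RNF19A, or Dorfin, behaved in another way, since it rose in both crosses and was not called in DPL. It was at 37.8 to 52 CPM in L with a median of 46.4, at 42.6 to 57.6 with a median of 48.5 in DPL, at 47.5 to 72 with a median of 59.3 in LDPL and at 49.5 to 80.0 with a median of 57.8 in DLDPL. L and DPL shared most of their range, and the medians of both crosses lay above the highest DPL library. The log2 change against L was 0.34 ± 0.10 in LDPL and 0.37 ± 0.10 in DLDPL (adjusted p = 0.00841 and 0.00643), and 0.08 ± 0.10 in DPL (adjusted p = 0.565). RNF14, a coactivator of the androgen receptor, was among the 5 most abundant members and was at 118 ± 18.4 CPM in L and 115 ± 22.8 in DPL (log2 difference -0.04, 95% interval -0.29 to 0.22).

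The largest group was the RNF ligases bound to membranes, of which 29 were listed, 18 had an identifier and 15 were tested. It had 1 rise and 6 falls in DPL against L, where 19.1% of all genes rose and 18.9% fell. RNF5 (ENSSSCG00000001436), a ligase of the endoplasmic reticulum that acts in the disposal of misfolded membrane proteins, was at 23.1 to 33 CPM in L with a median of 28.9, at 37.3 to 61.5 with a median of 43 in DPL, at 27.4 to 38.6 with a median of 31.5 in LDPL and at 29.8 to 43.3 with a median of 33.5 in DLDPL. Every DPL library lay above every L library, and both crosses overlapped L and DPL. RNF5 rose in DPL against L (log2 change 0.65 ± 0.10, adjusted p = 8.44e-06) and was lower in LDPL and DLDPL than in DPL (log2 change -0.50 ± 0.10, adjusted p = 0.00695, and log2 change -0.37 ± 0.10, adjusted p = 0.0315). Against L it was not called in LDPL (log2 difference 0.15, adjusted p = 0.281) or DLDPL (0.27, adjusted p = 0.0515). RNF13, a ligase of endosomes and lysosomes, was higher than in L in LDPL (log2 change 0.37 ± 0.13, adjusted p = 0.0275) and DLDPL (log2 change 0.38 ± 0.13, adjusted p = 0.0304), and its difference in DPL was 0.20 ± 0.13 (adjusted p = 0.214). It overlaps PFN2 in RefSeq and is named outside the rule.

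Among these membrane-bound ligases, RNF149 (ENSSSCG00000008168) and RNF128, also called GRAIL, fell in DPL. RNF149 was at 10.9 to 24.3 CPM in L with a median of 19.9, at 4.36 to 11.6 with a median of 7.95 in DPL, at 9.58 to 23.1 with a median of 12.5 in LDPL and at 9.17 to 14.7 with a median of 12.5 in DLDPL. The 2 breeds overlapped at 1 end, where the lowest L library lay under the highest DPL library, and the medians of the crosses lay between those of the parents. The log2 change was -1.21 ± 0.19 in DPL and -0.60 ± 0.18 in DLDPL (adjusted p = 5.93e-06 and 0.0169), and LDPL was above DPL (log2 change 0.83 ± 0.19, adjusted p = 0.0134). CNOT11, which overlaps RNF149 in RefSeq, had a log2 change of -0.15 ± 0.09 in DPL (adjusted p = 0.195). RNF128, known as an anergy gene of T cells, was at 12.9 to 21.2 CPM in L with a median of 18.3, at 3.08 to 13 with a median of 8.73 in DPL and at 3.9 to 22.8 with a median of 10.7 in LDPL. The highest DPL library only just reached the lowest L library. Its log2 change was -1.15 ± 0.26 in DPL and -0.69 ± 0.26 in LDPL (adjusted p = 0.000724 and 0.0402), with 1 LDPL library, replicate 10, above all L libraries. Lymphocyte markers (8 of 11 with an identifier, 5 tested) summed to 4.1 to 29.3 CPM in L and 2.51 to 12.6 in DPL, and their part in the change of RNF128 was not tested. The other falls in the group were RNF144A, RNF144B, RNF26 and RNF103, with RNF103, of the endoplasmic reticulum, at 18.2 ± 5.07 against 23.8 ± 4.62 CPM (adjusted p = 0.0371).

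Outside these roles, RNF146 (ENSSSCG00000004217) was, like TRIM63, higher than in L in all 3 other groups. This ligase binds proteins that carry poly-ADP-ribose and thereby removes axin, a brake on Wnt signalling. It was at 34.2 to 55.5 CPM in L with a median of 42.3, at 63.5 to 99.7 with a median of 72.9 in DPL, at 61.3 to 89.5 with a median of 79.9 in LDPL and at 47.9 to 96.1 with a median of 63.1 in DLDPL. DPL and LDPL lay wholly above L, and the lowest DLDPL libraries overlapped it. The log2 change against L was 0.81 ± 0.13, 0.85 ± 0.13 and 0.63 ± 0.13 (adjusted p = 5.97e-06, 5.35e-06 and 0.000434). RNF208 was a gene of few reads, at 0.163 to 0.829 CPM in L with a median of 0.625 and at 1.27 to 2.68 with a median of 1.92 in DPL, the largest rise by edgeR among the 67 tested members (log2 change 1.71 ± 0.40, adjusted p = 0.000903). With limma on log2(RPKM + 1) its change was 0.88, below the 1.11 of TRIM63 in that fit. Every DLDPL library lay below every DPL library (0.156% of all genes), although the difference was not called (log2 -1.11 ± 0.39, adjusted p = 0.0942).

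RNF10 was 1.21-fold higher in DPL than in L (log2 change 0.28 ± 0.11, adjusted p = 0.0421), at 129.9 to 209 CPM in L with a median of 175 and at 159 to 284 with a median of 206 in DPL. The lowest DPL libraries lay within the range of L, and the call was lost with limma on RPKM (log2 change 0.10 and 0.11, adjusted p = 0.466 and 0.463) and with the 2 groups fitted alone (adjusted p = 0.0974). It was also lost without any 1 of L replicates 1, 2, 5, 7 and 9, DPL replicates 19, 23, 26 and 30 or DLDPL replicates 28 and 29, with adjusted p up to 0.117. RNF7, or RBX2, the RING subunit of cullin ligases, was at 50.6 ± 9.25 CPM in L and 51.2 ± 13.2 in DPL (log2 difference 0.02, 95% interval -0.28 to 0.32), with -0.16 and -0.17 by limma on RPKM. TRIM59 was at 2.14 ± 0.496 CPM in L and 1.14 ± 0.55, 1.2 ± 0.275 and 1.11 ± 0.332 CPM in DPL, LDPL and DLDPL, with log2 changes of -0.89 ± 0.24, -0.83 ± 0.24 and -0.94 ± 0.24 (adjusted p = 0.00335, 0.00775 and 0.00445). SMC4, which overlaps TRIM59 in RefSeq, had a log2 change of -0.16 ± 0.12 in DPL (adjusted p = 0.276). TRIM68, an androgen receptor cofactor, fell in LDPL (log2 change -0.79 ± 0.19, adjusted p = 0.00161) and DPL (log2 change -0.57 ± 0.18, adjusted p = 0.0139), and RNF227 fell in DLDPL (log2 change -0.95 ± 0.23, adjusted p = 0.00276).

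The E2 enzymes supply these ligases with ubiquitin. Of 33 listed, 17 had an identifier and 16 were tested. Of these 16, 4 were higher and 1 lower in DPL against L, 5 and 0 in LDPL and 3 and 0 in DLDPL. Median log2 changes were 0.09, 0.06 and 0.04. Over all genes 19.1%, 14.9% and 11.6% were higher and 18.9%, 14.7% and 10.3% lower. UBE2E1 was at 63.4 ± 8.73 CPM in L and, in DPL, LDPL and DLDPL, at 86.8 ± 19.2, 114 ± 21.3 and 103 ± 21.4 CPM, called in all 3 (adjusted p = 0.00883, 2.29e-05 and 0.00036). UBE2Z and UBE2V2, a cofactor that lacks the catalytic cysteine, were 1.22-fold and 1.2-fold higher in DPL (adjusted p = 0.00898 and 0.0225). UBE2D4 was 1.36-fold lower (adjusted p = 0.0215).

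Both crosses were also compared with L. In LDPL 5 members were higher (14.9% of all genes) and 11 lower (14.7%), where 29.6% of all genes were called in either direction, and in DLDPL 4 were higher (11.6%) and 13 lower (10.3%; 21.9% either way). As shares of the 67 tested members these are 7.46% and 16.4% in LDPL and 5.97% and 19.4% in DLDPL. The median log2 change of the members was -0.13 in LDPL and -0.20 in DLDPL, beside -0.03 and -0.02 over all genes. With limma on log2(RPKM + 1) LDPL had 3 higher and 12 lower, and without L replicate 2, 3 were higher. No share of all genes is given here for these settings. The members higher in LDPL were TRIM63, RNF146, TRIM24, RNF19A and RNF13, and those higher in DLDPL were TRIM63, RNF146, RNF19A and RNF13. In LDPL against L the groups did not overlap in RNF146 and TRIM63 (higher, 3.97% of all genes) and TRIM32 (lower, 2.51%), and in DLDPL against L in TRIM63 (higher, 2.44%).

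The 3 comparisons with L use the same 8 L libraries, so their values are set side by side without a test of likeness. In all, 36 members (53.7% of those tested) were called in at least 1 of the 3, as were 46.6% of all genes. Called in all 3 were 8 members, namely TRIM63 and RNF146 as higher and RNF214, RNF26, TRIM32, TRIM45, TRIM59 and TRIM65 as lower, as the plot of the 3 comparisons shows. Of all genes 8.8% were higher and 7.07% lower in all 3, beside 2.99% and 8.96% of the tested members. RNF26, a ligase anchored in the endoplasmic reticulum, had log2 changes of -0.54, -0.61 and -0.55 in DPL, LDPL and DLDPL, RNF214 of -0.38, -0.30 and -0.35 and TRIM45 of -0.38, -0.38 and -0.45. These 3 genes were named after their values were seen. Over the 67 tested members, L had the highest group mean in 35 and the lowest in 16, whereas DPL had the highest in 15 and the lowest in 22. The order of the means was not counted over all genes, so it cannot be read as particular to these members. By a test of any difference among the 4 groups, 28 members were called, beside 37.4% of all genes.

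**Figure D5:**
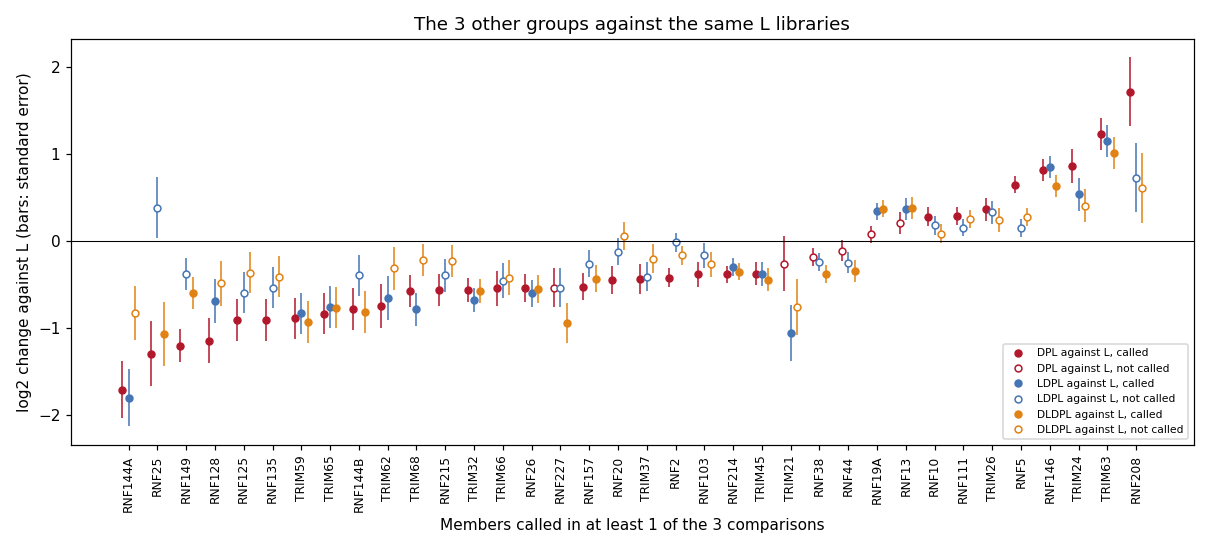
Log2 change against L (bars: standard error) in DPL, LDPL and DLDPL for the 36 members called in at least 1 of these comparisons, in order of the DPL value. Filled points were called and open points were not. TRIM63 and RNF146 are filled above 0 in all 3 groups, and RNF25 lies below 0 in DPL and DLDPL and at an uncalled value above 0 in LDPL.

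Between the groups with Dapulian ancestry few members differed. In LDPL against DPL, RNF149, RNF2 and RNF25 were higher (1.29% of all genes) and RNF5 was lower (1.56%), where 2.85% of all genes were called in either direction. No member had groups without overlap there (0.0858% of all genes higher and 0.109% lower). RNF25, which acts in the quality control of stalled ribosomes, was at 0.451 to 2.52 CPM in L with a median of 0.921, at 0.329 to 0.812 with a median of 0.508 in DPL, at 0.811 to 2.6 with a median of 1.63 in LDPL and at 0.139 to 1.14 with a median of 0.585 in DLDPL. It was highest in LDPL, where the lowest library just reached the highest DPL library, while L spread from the range of DPL to that of LDPL. Its log2 change was 1.68 ± 0.38 in LDPL against DPL (adjusted p = 0.0128) and -1.30 ± 0.37 in DPL against L (adjusted p = 0.00633). STK36, which overlaps RNF25 in RefSeq, had a log2 difference of 0.00 ± 0.16 and -0.35 ± 0.16 in these comparisons (adjusted p = 0.999 and 0.0758). RNF25 lay outside the rule for named genes and was chosen after its values were seen.

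In DLDPL against DPL, RNF5 alone was called lower (2.12% of all genes) and 0 members were called higher by edgeR (1.98%). At an unadjusted p under 0.05, 8 members were higher and 5 lower, and DESeq2 called 3 higher, as did limma on log2(RPKM + 1). No share of all genes is given here for these settings, so these counts stand without a background and are not read as a result about the members. The call of RNF5 was lost without DLDPL replicate 6, 18, 28 or 29 or DPL replicate 21 or 23, with adjusted p up to 0.0718. It was also lost with the 2 groups fitted alone (adjusted p = 0.102) and with limma on log2(RPKM + 1) and log2(RPKM + 0.1) (adjusted p = 0.2 and 0.196). No difference between the crosses was called in these genes: in DLDPL against LDPL 0 members were called by edgeR, as were 0% of all genes, with 2 higher and 1 lower at an unadjusted p under 0.05. DESeq2 called 1 member lower there and limma 0, and no share of all genes is given for these or for the unadjusted counts. The crosses overlapped in every tested member (groups without overlap in 0.0078% of all genes higher and 0.0156% lower).

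LDPL was also set against the midpoint of its parents on the log2 scale, the level it would have if parental effects added up. Off the midpoint were 8 members, 5 above (5.13% of all genes) and 3 below (2.99%), where 8.12% of all genes were called in either direction. RNF146 (log2 change 0.45 ± 0.11, adjusted p = 0.00721), RNF19A (log2 change 0.30 ± 0.08, adjusted p = 0.022) and TRIM63 (log2 change 0.54 ± 0.16, adjusted p = 0.0296) lay above. RNF25 (1.03, adjusted p = 0.0301) and TRIM44 (0.33, adjusted p = 0.0493), both named after their values were seen, lay above as well. Below it were TRIM32 (log2 change -0.40 ± 0.12, adjusted p = 0.0361), TRIM21 (log2 change -0.93 ± 0.29, adjusted p = 0.0417) and RNF144A (-0.95, adjusted p = 0.0497). For TRIM63 and RNF146 the cross lay near DPL: the log2 difference of LDPL from DPL was -0.08 (95% interval -0.45 to 0.29) and 0.04 (-0.21 to 0.29). The call of RNF19A was lost without LDPL replicate 14 (adjusted p = 0.0632), and that of TRIM63 without LDPL replicate 4, 9 or 15 (adjusted p up to 0.0894). That of TRIM32 was lost without any 1 of L replicate 8, LDPL replicates 4, 5, 9, 14 and 24 or DPL replicate 26 (adjusted p up to 0.0804), and that of TRIM21 without any 1 of L replicates 1, 2, 7 and 9, LDPL replicates 4, 8, 10, 14 and 15 or DPL replicates 11, 16 and 30 (adjusted p up to 0.103). Both were also lost with limma on RPKM and with no filter on low counts, at adjusted p from 0.0548 to 0.0895. Limma on RPKM and a fit without the filter on low counts gave 4 members off the midpoint, and no share of all genes is given for these fits. The LDPL mean lay between the parental means in 31 of the 67 members, and this was not counted over all genes.

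The spread between pigs of a group depended on the level of the member. Over the 33 members with a mean of at least 10 CPM, the coefficient of variation, taken as the median of the 4 groups, ran from 11.1% in RNF19A to 35.5% in RNF128, with 16.8% for the member in the middle. RNF2, RNF214 and RNF111 followed RNF19A as the steadiest. Over the 34 members below 10 CPM it ran from 17.7% to 60.1%, with a middle value of 26.9% and the highest values in TRIM34 (60.1%), TRIM25 (50.2%) and RNF208 (45.6%).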

How the data were processed

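RNA of longissimus dorsi from 32 pigs, 8 per breed group, was sequenced from libraries made with a kit that keeps no strand, per the labels' protocols. The deposited tables hold, for each gene, counts of reads that mapped uniquely and RPKM values that the authors computed. A deposited column gives coverage as a percent of gene length and was not tested. Cufflinks, Bowtie 0.12.2 and a mouse build are named in the submitters' processing notes, although the identifiers are those of pig genes. Neither the pig build nor the annotation is given in the sources used here, no coordinates are reported, and the depth of 21.7 M to 29.7 M reads per library limits precision for members of few reads.

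Counts were tested with edgeR 4.0.16 in R 4.3.3 (TMM, quasi-likelihood, 1 fit of the 4 groups, all 32 libraries, Benjamini-Hochberg over the 12821 genes that passed filterByExpr with a minimum count of 10 and a minimum total of 15). Genes were called at an adjusted p under 0.05. The common biological coefficient of variation was 0.285. CPM values are scaled by TMM, errors are SD over 8 libraries, and SEs of log2 changes were taken from the F statistic as |log2 change| / sqrt(F). Alternatives were DESeq2 1.42.0, limma 3.58.1 on log2(RPKM + 1) and log2(RPKM + 0.1) with a mean RPKM of at least 0.5, DESeq2 size factors in edgeR, no filter, the 2 groups alone, no mitochondrial genes, a replicate block, and each library left out in turn, most of the last added after the data were seen. The tests were checked on simulated data.

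Members, gene lists and markers were chosen with earlier results of these data known. Named was a panel of TRIM63, TRIM55, TRIM54, TRIM72, TRIM32, TRIM28, TRIM21, TRIM25, RNF2, RNF20, RNF40, RNF7 and RNF5. Also named were the 12 called members with the largest change in DPL against L, at 1 RPKM or more in the higher group. Under the same floor, the 5 called members with the smallest adjusted p in each other comparison were named. The 5 most abundant members and the 4 genes with the smallest adjusted p in each list without members were added. RNF4, RNF8, RNF13, RNF25, RNF26, RNF103, RNF111, RNF181, RNF214, TRIM26, TRIM34, TRIM44, TRIM45 and TRIM66 fall outside this rule and were chosen for the text after their values were seen. Overlaps of genes came from RefSeq on Sscrofa11.1, used for neighbours alone.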

Additional observations from a re-analysis of the deposited data

Results flagged for a closer look

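In 8 of 108 groups of 8 libraries (7.41%), the highest library of a named member stood apart from the rest by Dixon's criterion. The nominal rate of 5% for this criterion assumes normally distributed values, which was not checked for CPM. RNF125 was at 4.24 CPM in LDPL replicate 14, where the next LDPL library was at 2.84. RNF128, the T cell anergy gene, was at 22.8 CPM in LDPL replicate 10 with the next at 12.1, and TRIM59 was at 1.82 CPM in the same library with the next at 1.30. RNF144B was at 112.5 CPM in DPL replicate 30 with the next at 60.4, and RNF227 was at 4.33 CPM in DPL replicate 23 with the next at 2.64. TRIM21 was at 6.04 CPM in DLDPL replicate 32, where the next library was at 1.49, and TRIM32 was at 4.58 CPM there with the next at 3.46. That library also had the highest summed level of interferon-stimulated genes, 937 CPM, and the part of this in the value of TRIM32 was not tested. TRIM32 was at 6.08 CPM in L replicate 8 with the next at 5.11.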

How the results depend on the processing

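Against L, the counts of members lower in DPL (19 to 23 without each library in turn, 22 with all) and lower in DLDPL (10 to 14, 13 with all) stayed within 1.5 times under all settings run. With limma on log2(RPKM + 1) and log2(RPKM + 0.1), 5 and 5 members were higher in DPL than in L (8 by edgeR, 6 to 9 without each library) and 3 and 3 higher in LDPL (5 by edgeR, 3 to 6 without each library, with 3 without L replicate 2). With no filter on low counts 10 were higher and 20 lower in DPL. LDPL against DPL had 2 to 3 higher and 1 to 2 lower without each library, with 2 lower without LDPL replicate 24. In DLDPL against DPL, DESeq2 gave 3 higher and limma 3 and 4 (edgeR 0, with 0 to 3 without each library, moved by L replicate 4, DPL replicates 7, 19 and 23, LDPL replicates 8, 10 and 24 and DLDPL replicates 28 and 32). Limma gave 0 and 0 lower and the 2 groups alone 0 (edgeR 1, with 0 to 2, moved by DLDPL replicates 6, 18, 28, 29 and 32 and DPL replicates 21 and 23). DESeq2 gave 1 lower in DLDPL than in LDPL. Off the midpoint were 4 members with no filter, 4 and 4 with limma and 3 to 8 without each library (edgeR 8), moved by L replicates 1, 2 and 9, LDPL replicates 4, 8, 9, 14 and 15 and DPL replicate 30. No share of all genes is given here for these settings, so their counts stand without a background. The causes were not tested.

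L and LDPL share 5 replicate numbers. Deviations of same-numbered samples correlated at -0.0855 to 0.132 and 0 samples correlated best with their own number. No pairing by number was seen, but a check on 5 shared numbers cannot exclude it. With the replicate block on these 10 samples, 4 members were lower in LDPL than in L (11 on all samples). No share of all genes lower with the block is given. In all, 8 members were called with the block and 7 without it on the same samples, beside 1813 and 2176 of all genes. RNF144A and TRIM68 had adjusted p = 0.0694 and 0.222 by edgeR with the block.

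The change in DPL against L turned sign for 3 members that were not called. RNF40 was at 0.05 and moved to -0.11 and -0.14 with limma and to -0.0422 without DPL replicate 21 (-0.0422 to 0.124 without each library). RNF7 was at 0.02 and moved to -0.16 and -0.17 with limma and ranged from -0.0677 to 0.0933 without each library, turning without L replicates 2 and 4 and DPL replicates 7, 11, 19 and 23. RNF14 was at -0.04 and ranged from -0.0928 to 0.0354, turning without L replicate 8 and DPL replicate 16.

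Depth limits the members of few reads, such as RNF144A, RNF208 and RNF25, most. Symbols were missing for part of the identifiers, so the families are not complete here. Reads of overlapping genes cannot be told apart without strand. The labels give no sex or batch, and L was numbered apart from the rest.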
